A study of Mus musculus with 5 samples.

Results

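The data describe 4 sorted populations of mouse bone marrow taken as an ordered path of monocyte development. In path order these are the monocyte-dendritic cell progenitor (MDP), the common monocyte progenitor (cMoP), the classical monocyte and the nonclassical monocyte. They are 4 of the 5 populations measured, and the fifth, the common dendritic cell progenitor (CDP), lies on another branch and serves only as a point of reference. All cells came from untreated wild-type C57Bl/6 mice, were sorted to a stated purity above 95% as Lin- CD115+ cells, and went onto 1 expression array per population. MDP were CD117+ CD135+, cMoP CD117+ CD135-, CDP CD117int CD135+, classical monocytes Ly6C+ TremL4- and nonclassical monocytes Ly6C- TremL4+. The sources used here give neither the age of the mice nor how many were behind each array. With 1 array per population no difference below has a replicate check, and none has a test.

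Each gene has 1 log2 value per array, so 1 unit is a factor of 2. A gene entered where the highest of its 4 path values reached 6.27, the median of all gene values, which 10892 of 19938 genes did. A riser had no step down in any of the 3 steps of the path and ended at least 1 unit above its start, and a faller was the reverse. A riser or faller was called graded where every step was at least 0.5. A peak or dip at a middle stage had that stage at least 1 unit above or below each of the other 3 path arrays. By these rules 1374 genes (12.6% of the 10892) had a pattern. There were 427 risers (3.92%), 729 fallers (6.69%), 31 cMoP peaks (0.285%), 39 cMoP dips (0.358%), 139 classical monocyte peaks (1.28%) and 10 classical monocyte dips (0.0918%). Of the risers 45 were graded (0.413%), as were 46 of the fallers (0.422%). Wfdc17 alone held a place in 2 patterns, as a cMoP dip and a classical monocyte peak. These values chose the members, so every count and size below describes 4 arrays. In RNA from a population of cells, fewer cells of a type and less RNA per cell cannot be told apart.

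Monocytes arise in the marrow from progenitors that also give rise to dendritic cells. The cMoP has lost the dendritic branch and divides before it gives rise to classical monocytes, which leave the marrow for inflamed tissue. Some classical monocytes convert to nonclassical monocytes, long-lived cells that patrol the vessel wall and depend on the nuclear receptor Nr4a1. Along this route cells leave the cell cycle and put on receptors for microbes, immune complexes and adhesion.

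Array-wide values were close together. Medians of the 35556 probe sets ran from 6.02 in cMoP through 6.07 in classical monocytes, 6.13 in CDP and 6.14 in MDP to 6.16 in nonclassical monocytes, and between 9831 and 10167 genes reached 6.27 on each. Of the sorting gates, 4 genes could be checked. Csf1r, which encodes CD115, lay between 10.03 and 12.21 on all path arrays. Kit, which encodes CD117, was at 10.11 in MDP, 9.37 in cMoP, 5.79 in classical and 5.61 in nonclassical monocytes. Flt3, which encodes CD135, was at 10.75 in MDP and between 5.77 and 6.74 on the other 3. Treml4 was at 11.78 in nonclassical monocytes and at most 6.18 before. Of the genes that define other marrow cells, those past 6.27 were 3 of 14 for T and NK cells (highest 6.93), 3 of 11 for B cells (Cd79b, up to 9.5), 4 of 10 for erythroid cells (highest 7.41), 5 of 7 for platelets (highest 6.91) and 9 of 16 for dendritic cells. The brightest of the last were Naaa, at 10.75 in classical monocytes, and Flt3.

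**Figure D1:**
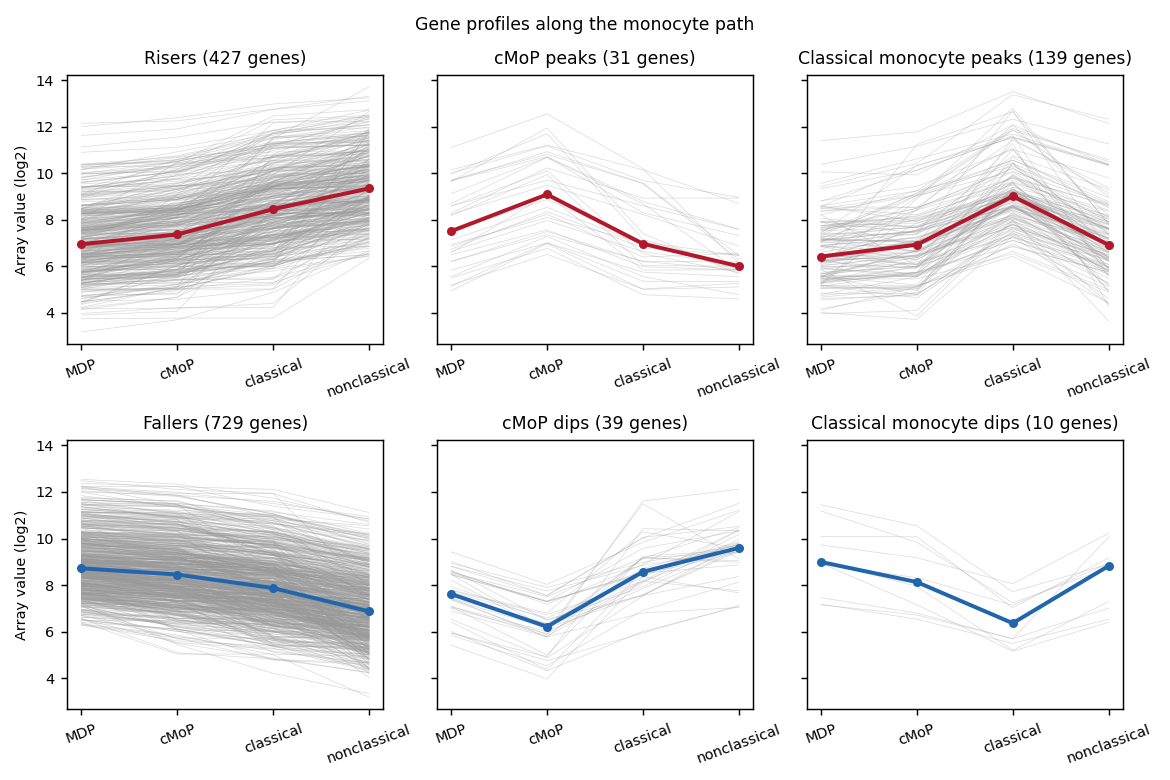
Array values (log2) of every gene in each pattern across the path, with arrays in path order on the horizontal axis. Thin grey lines are genes and the thick line joins the medians; the riser median goes from 6.95 in MDP to 9.35 in nonclassical monocytes and the faller median from 8.72 to 6.87.

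The path was uneven, and its early step was small. Among the 3847 genes (35.3%) whose 4 values spanned at least 1 unit, the largest step lay between MDP and cMoP in 369 (9.59%), between cMoP and classical monocyte in 1579 (41.0%) and between classical and nonclassical monocyte in 1899 (49.4%). Taken alone, the step from MDP to cMoP raised 147 genes (1.44% of those reaching 6.27 on either array) by at least 1 unit and lowered 143 (1.4%). The step from cMoP to classical monocyte raised 722 (7.01%) and lowered 453 (4.4%). The last step raised 373 (3.55%) and lowered 1031 (9.82%), so it was mostly a step down. The nonclassical array was the lowest of the 4 for 2095 of the 3847 genes and the classical array for 293.

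Risers and fallers took their largest steps at different places. Of the risers, 41 (9.6%) rose most from MDP to cMoP, 233 (54.6%) from cMoP to classical and 153 (35.8%) from classical to nonclassical monocyte. Of the fallers, 71 (9.74%), 203 (27.8%) and 455 (62.4%) fell most at these steps. As shares of all 10892 genes these groups are 0.376%, 2.14% and 1.4% for risers and 0.652%, 1.86% and 4.18% for fallers. By the ends alone, 970 genes (8.91%) were at least 1 unit higher in nonclassical monocytes than in MDP and 1747 (16%) lower, so most such genes did not move in order. At least 80% of the whole fall lay in the last step for 91 fallers, against 11 for the middle and 1 for the early step. The order MDP < cMoP < classical < nonclassical was not the commonest among genes that spanned 1 unit. Of the 3847, 823 (21.4%) ran nonclassical < classical < MDP < cMoP, 675 (17.5%) fell at every step and 408 (10.6%) rose at every step. A path ordered in either direction was thus met by a minority of these genes.

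**Figure D2:**
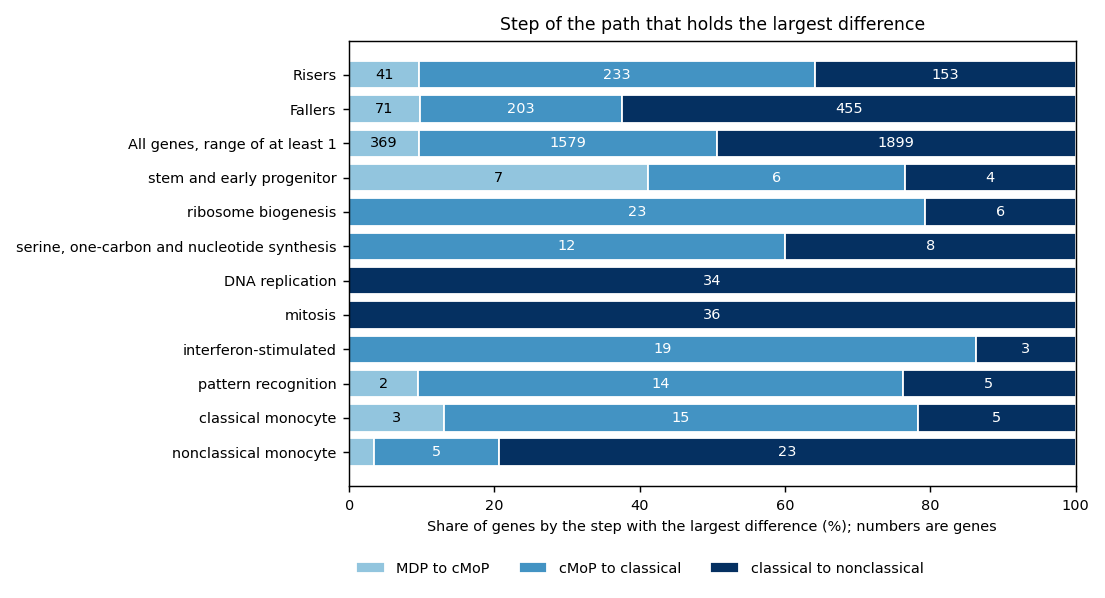
Share of genes (%) by the step of the path that holds their largest difference, for risers, fallers, all genes spanning at least 1 log2 unit, and gene lists; numbers in the bars are genes. The 36 mitosis genes lie wholly in the last step, and 23 of 29 ribosome biogenesis genes lie in the step from cMoP to classical monocyte.

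Among risers, the largest rises belonged to surface receptors of the innate immune system. Clec4a1, a C-type lectin receptor, was at 4.23 in MDP, 5.11 in cMoP, 10.82 in classical and 12.43 in nonclassical monocytes. That was a rise of 8.20 units, or at least 71.6-fold with the MDP value set to 6.27. Both progenitors were dim and both monocytes bright, so most of the rise lay at one step. Clec4a3, a neighbour of the same family, had 5.29, 5.84, 11.16 and 12.35 (at least 67.5-fold). Adgre4, an adhesion G protein-coupled receptor of macrophages, had 4.37, 5.10, 7.88 and 11.94 (at least 50.9-fold) and rose most at the last step. Within the Clec4 family, taken up after its values were seen, 5 of 7 genes past 6.27 were risers beside 3.92% of all genes. Clec4a2 was a classical monocyte peak at 5.22, 8.44, 10.04 and 7.59.

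The promoter of Clec4a1 is shown because this gene had the largest rise of any riser. A further reason is that the hexamer TGTGGT, the core bound by RUNX factors, stood in a larger share of promoters of graded risers than of other genes. The window runs from 250 bases before to 50 after the RefSeq start, chr6:122921598-122921897 on the plus strand of GRCm38.p6, with the match at position -40 in capitals.

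Clec4a1: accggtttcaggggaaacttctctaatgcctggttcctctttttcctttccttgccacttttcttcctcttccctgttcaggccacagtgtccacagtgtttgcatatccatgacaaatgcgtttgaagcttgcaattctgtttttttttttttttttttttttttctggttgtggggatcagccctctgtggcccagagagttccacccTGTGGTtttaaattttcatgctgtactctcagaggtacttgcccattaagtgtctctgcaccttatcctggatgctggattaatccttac

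On either strand, TGTGGT was found in 15 of 42 promoters (35.7%) of graded risers, 75 of 479 (15.7%) of all risers, 12.8% of the promoters of genes past 6.27 and 16.8% of all 32851 promoters. A match is a run of letters and not a shown binding site.

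The paired immunoglobulin-like receptors rose at every step. Pilrb2, an activating member, had 4.39 in MDP, 6.07 in cMoP, 8.65 in classical and 11.06 in nonclassical monocytes, and its smallest step of 1.67 was the largest smallest step of any riser. Pilrb1 had 5.22, 6.45, 9.02 and 10.91, and the inhibitory Pilra had 5.52, 6.35, 8.68 and 11.04. All 3 family members measured were graded risers, beside 0.413% of all genes, a family singled out after its values were seen. Pglyrp1, a secreted protein that binds bacterial peptidoglycan, had 7.24, 8.53, 9.94 and 12.65, which is 42.5-fold with both ends above 6.27. Its smallest step was 1.29.

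Receptors for microbial products made up a further group of risers. Of 22 pattern recognition genes past 6.27, 7 were risers beside 3.92% of all genes, 1 was a cMoP dip and 2 were classical monocyte peaks. The list's median steps were 0.61, 1.16 and 0.08, where the medians of all genes were 0.00, -0.01 and -0.08. Tlr13, a receptor for bacterial ribosomal RNA, had 4.50, 5.67, 10.72 and 11.42 (at least 35.4-fold). Tlr4, the receptor for lipopolysaccharide, had 5.37, 7.30, 8.03 and 8.62, with its largest step already at cMoP. Tlr8 had 4.61, 5.22, 8.35 and 8.94, and Nod1, a cytosolic sensor of bacterial cell wall, 7.18, 7.78, 8.37 and 9.56. Naip5 and Naip2, sensors of bacterial flagellin and of a bacterial secretion system, ended at 11.25 and 10.04 from 7.65 and 7.31. Tlr1 peaked in classical monocytes at 8.55, with 7.53 in cMoP and 7.21 in nonclassical monocytes, so the family was split between patterns.

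Receptors for immune complexes rose at different steps. Fcgr4, a receptor for IgG, had 5.10, 6.30, 6.34 and 11.75 (at least 44.5-fold), with 81.3% of the rise at the last step. Since its cMoP and classical values were so close, Fcgr4 no longer met the rule after quantile normalization. Fcgr1, the high-affinity IgG receptor, had 5.28, 5.86, 8.26 and 8.27, so its rise lay at the step before. Fcer1g, the signalling chain these receptors share, was bright throughout at 11.62, 11.90, 12.74 and 13.11. Of 10 Fc and complement genes past 6.27, 5 were risers beside 3.92% of all genes. Fcgr3, another IgG receptor, was not, with 8.10, 10.83, 10.97 and 10.79, and had its one large step at cMoP.

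The nonclassical monocyte list held 14 risers among 30 genes past 6.27, beside 3.92% of all genes. Of the 29 that spanned 1 unit, 23 took their largest step last, where 49.4% of all such genes did. The list was written from known markers of that cell, so its direction at the end of the path is no independent result, but its steps differ from gene to gene. Apoe, a lipid carrier protein, had 7.95, 8.26, 11.50 and 13.71 (54.2-fold), with its larger step into classical monocytes. Ace, angiotensin-converting enzyme, had 5.56, 5.76, 6.57 and 11.89 (at least 49.1-fold), with its larger step into nonclassical monocytes. Pparg, a lipid-sensing nuclear receptor, had 5.97, 6.13, 6.13 and 11.13. Ceacam1, an adhesion and inhibitory receptor, had 7.70, 8.65, 10.73 and 11.85 and climbed at every step. Several known members were not risers because they dipped first. Nr4a1 had 6.48, 6.05, 7.87 and 11.81, and Cx3cr1, the fractalkine receptor, had 9.03, 8.57, 10.54 and 12.29.

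Of 22 trafficking and adhesion genes past 6.27, 4 were risers beside 3.92% of all genes, 1 was a faller, 3 were classical monocyte peaks and 14 held no pattern. Itgb2, the common chain of the leukocyte integrins, had 7.25, 8.34, 11.22 and 12.21 (31.3-fold) and was graded. Its partner Itgal had 8.77, 8.90, 9.62 and 11.43, while Itgam, the partner in complement receptor 3, had 7.45, 7.46, 11.06 and 10.73 and fell back by 0.33 at the end. S1pr5, a sphingosine phosphate receptor for exit from marrow, had 6.10, 6.32, 6.88 and 10.63. Outside that list, Fgr, a Src family kinase, had 5.29, 5.57, 10.41 and 11.78 (at least 45.7-fold).

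Only 41 risers took their largest step at the early step, and these include genes of the mature phagocyte. Adgre5, the adhesion receptor CD97, had 6.20 in MDP, 9.10 in cMoP, 11.71 in classical and 12.10 in nonclassical monocytes (at least 56.8-fold). Cybb, the catalytic subunit of the phagocyte oxidase, had 8.01, 10.46, 12.46 and 12.73 (26.3-fold). Klf4, a transcription factor required for monocytes, had 6.58, 8.46, 9.47 and 9.70 (8.65-fold). For these genes the cMoP array already stood well above MDP, and the last step was the smallest.

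Of 26 growth factor and cytokine receptor genes past 6.27, 8 were risers beside 3.92% of all genes, 1, Kit, was a faller, and 17 held no pattern. Il13ra1, a chain of the interleukin-13 receptor, had 4.48, 4.96, 8.26 and 9.92, and Il10ra, for the anti-inflammatory interleukin-10, had 7.39, 7.46, 9.47 and 11.14. Tnfrsf1b, a receptor for tumour necrosis factor, had 7.87, 8.41, 10.09 and 11.54 and was graded. Ifngr1, for interferon gamma, took its largest step at cMoP with 9.35, 10.40, 10.68 and 11.51. Csf3r, the receptor for granulocyte colony-stimulating factor, had 8.64, 8.96, 9.93 and 10.31.

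**Figure D3:**
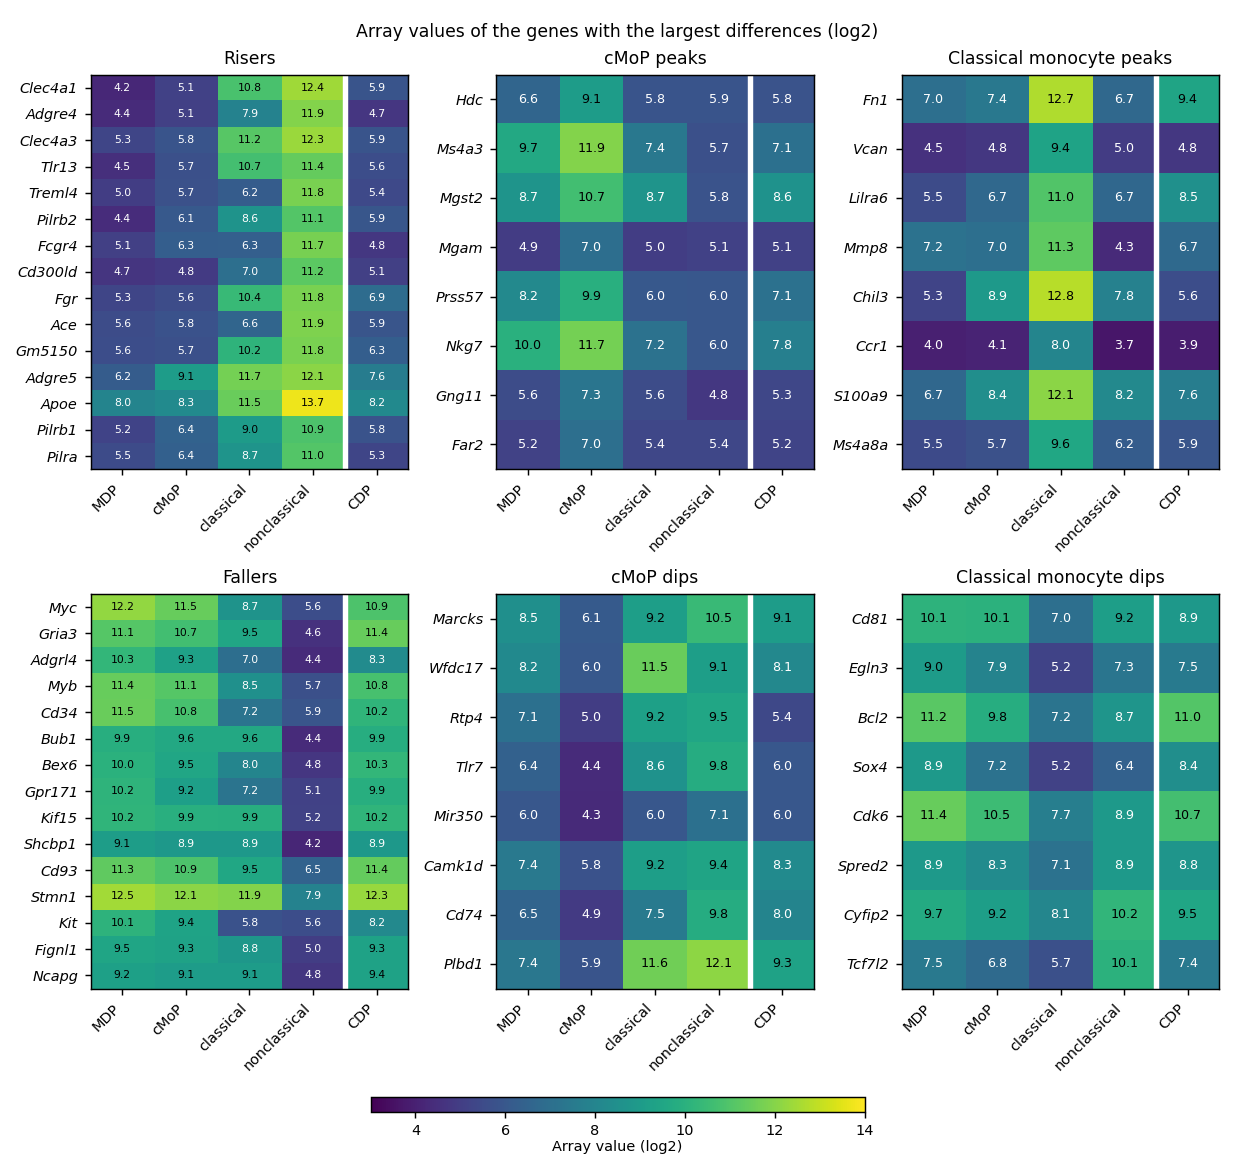
Array values (log2, colour and printed number) of the 15 risers and 15 fallers with the largest whole difference and of the 8 genes with the largest margin in each peak or dip pattern; columns are arrays in path order with CDP set apart at the right. Clec4a1 runs from 4.23 to 12.43 and Myc from 12.21 to 5.61.

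Among fallers, the largest fall belonged to Myc, the growth-driving transcription factor. It was at 12.21 in MDP, 11.46 in cMoP, 8.66 in classical and 5.61 in nonclassical monocytes, a whole difference of -6.60, or at least 61.7-fold. Each step down was larger than the one before. Myb, the progenitor transcription factor, had 11.45, 11.11, 8.54 and 5.68 (at least 36.3-fold) and showed the same order. Cd34, a sialomucin of early progenitors, had 11.51, 10.82, 7.24 and 5.89 (at least 37.8-fold), but fell most into classical monocytes. Adgrl4, an adhesion receptor, had 10.28, 9.31, 6.98 and 4.36, with a smallest step of -0.96. Gria3, a glutamate receptor subunit, had 11.10, 10.65, 9.52 and 4.55, and Cd93, a lectin-like receptor of progenitors, had 11.33, 10.92, 9.55 and 6.46 (29.4-fold). These 2 stayed bright until the classical monocyte.

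Stem and early progenitor genes were spread over the steps. Of 22 past 6.27, 6 were fallers beside 6.69% of all genes, and Sox4 was a classical monocyte dip. Their median steps were -0.81, -0.64 and 0.20, and of 17 that spanned 1 unit, 7 took the largest step from MDP to cMoP, 6 at the middle step and 4 last. Across all genes that spanned 1 unit, 9.59% took it at the early step. Meis1, a homeobox factor of stem cells, had 7.92, 6.43, 6.25 and 5.80. Among early fallers outside the list, Tet1, a methylcytosine dioxygenase, had 9.22, 7.18, 5.49 and 4.89, and Satb1, a chromatin organizer of lymphoid cells, had 10.70, 8.80, 7.93 and 7.75 (7.72-fold). Several stem genes missed the faller rule by a turn upward at the end. Cd27 had 10.15, 7.90, 6.22 and 7.08, and Erg, an ETS factor, had 9.68, 8.34, 6.13 and 6.15. Lymphoid-primed genes had a median early step of -1.69 over the 6 past 6.27, of which Satb1 alone was a faller.

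Genes of ribosome assembly fell mainly at the middle step. Of 30 past 6.27, 16 were fallers beside 6.69% of all genes. Of the 29 that spanned 1 unit, 23 took their largest step from cMoP to classical monocyte, where 41.0% of all such genes did. The list's median steps were -0.06, -1.17 and -0.50. Gnl3, the nucleolar GTPase nucleostemin, had 10.25, 10.16, 7.69 and 6.83. Wdr12, a large-subunit assembly factor, had 9.73, 9.64, 7.41 and 6.15, and Dkc1, which modifies ribosomal RNA, had 9.78, 9.60, 7.78 and 6.74. MDP and cMoP stood close together for all 3, and the classical array was far below both. The list of serine, one-carbon and nucleotide synthesis had the same shape with median steps of 0.19, -1.07 and -0.62, but 3 fallers of 23, since most of its genes were slightly higher in cMoP than in MDP. Phgdh, the entry enzyme of serine synthesis, had 8.54, 8.55, 6.53 and 6.17. Genes of the ribosome itself held no such pattern, with 0 of 21 Rps and 1 of 31 Rpl genes in any class, beside 12.6% of all genes. These families were taken up after their values were seen.

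Genes of mitosis fell at the last step. All 36 past 6.27 were at least 1 unit lower in nonclassical than in classical monocytes, where 9.82% of all genes were. Their median steps were -0.05, 0.13 and -4.00. Kif11, the kinesin that separates spindle poles, had 10.30 in MDP, 10.27 in cMoP, 10.48 in classical and 4.30 in nonclassical monocytes. Top2a, the topoisomerase of mitotic chromosomes, had 11.63, 11.12, 11.28 and 6.16, and Birc5, the survivin of the chromosomal passenger complex, had 10.48, 10.65, 10.62 and 5.48. The first 3 arrays differed by 0.21 or less for Kif11, and the nonclassical array stood alone. Only 4 of the 36 were fallers by the rule, beside 6.69% of all genes, since small rises along the plateau broke the order. Bub1, a spindle checkpoint kinase, was one with 9.88, 9.63, 9.63 and 4.36, and 95.4% of its fall lay in the last step. Its cMoP and classical values were tied, and with the arrays centred on their medians Bub1 no longer met the rule.

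Genes of DNA replication started to fall one step sooner. Of 37 past 6.27, 11 were fallers beside 6.69% of all genes. The median steps were -0.57 into classical and -1.98 into nonclassical monocytes after 0.08 into cMoP. All 34 that spanned 1 unit still took the largest step last, where 49.4% of all such genes did. Mcm2, a subunit of the replicative helicase, had 9.73, 9.53, 8.80 and 6.70, and Prim1, a primase subunit, had 10.19, 9.93, 9.38 and 5.88. Rrm2, a subunit of ribonucleotide reductase, had 9.92, 10.35, 10.02 and 5.98 and so was no faller. Mcm3, another helicase subunit, had 9.83, 10.15, 9.38 and 6.86.

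The promoters of Kif11 and Mcm3 are shown because the mitosis and replication lists both took their largest step last yet held different motifs. Each gene was picked among members of its list that hold the motif, so the match itself is no result. Kif11 lies at chr19:37376132-37376431 on the plus strand, with the reverse complement of TTTGAA, the core of the cell cycle genes homology region, in capitals at position -19. Mcm3 lies at chr1:20820263-20820562 on the minus strand, with the E2F motif TTTGGCGC in capitals at position 39. Capitals mark only the motif named, and the Mcm3 window also holds the reverse complement of the related TTTCCCGC in lower case.

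Kif11: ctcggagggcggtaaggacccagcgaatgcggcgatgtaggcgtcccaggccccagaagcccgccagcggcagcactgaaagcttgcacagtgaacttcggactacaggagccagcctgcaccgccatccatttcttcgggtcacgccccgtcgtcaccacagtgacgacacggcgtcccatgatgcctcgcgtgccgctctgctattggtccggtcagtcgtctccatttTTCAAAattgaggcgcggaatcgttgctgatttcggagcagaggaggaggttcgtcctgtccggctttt
Mcm3: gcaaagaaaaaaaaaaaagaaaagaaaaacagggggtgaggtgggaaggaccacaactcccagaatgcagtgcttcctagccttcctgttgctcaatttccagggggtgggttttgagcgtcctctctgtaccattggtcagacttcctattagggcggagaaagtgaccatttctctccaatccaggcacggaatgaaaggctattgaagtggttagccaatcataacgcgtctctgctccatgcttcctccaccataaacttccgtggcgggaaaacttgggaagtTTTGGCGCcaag

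TTTGAA stood in 25 of 33 promoters (75.8%) of the mitosis list, in 5 of 37 (13.5%) of the replication list and in 12.1% of the promoters of genes past 6.27. CCAAT stood in 25 of 33 (75.8%), 21 of 37 (56.8%) and 37.4% in the same order. TTTGGCGC stood in 0 of 33, 6 of 37 (16.2%) and 1.06%, and the related TTTCCCGC in 0 of 33, 5 of 37 (13.5%) and 2.05%. Over all promoters the shares were 17.9% for TTTGAA, 37.4% for CCAAT, 0.514% for TTTGGCGC and 1.07% for TTTCCCGC. TTTGAA was no mark of fallers in general, at 119 of 763 promoters (15.6%).

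Regulators of the cell cycle were spread over the patterns. Ccnd2, a D cyclin, had 10.64, 10.07, 6.77 and 7.04, and Cdk6, its kinase, was a classical monocyte dip with 11.45, 10.55, 7.71 and 8.90. Cdk4, the other kinase of D cyclins, was a faller with 11.72, 11.62, 10.37 and 8.87. Ccnd2 and Cdk6 were thus low in classical monocytes, whose median mitosis gene was at 9.66, against 9.59 in MDP and 9.55 in cMoP. Btg1, an antiproliferative gene, rose with 8.36, 8.64, 9.85 and 10.50, and Rb1, the retinoblastoma gene, with 8.38, 8.49, 9.79 and 10.32. Of 17 such genes past 6.27, 2 were risers beside 3.92% of all genes and 1 was a faller beside 6.69%. A further 1 was a classical monocyte peak beside 1.28%, and 1 a classical monocyte dip beside 0.0918%.

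**Figure D4:**
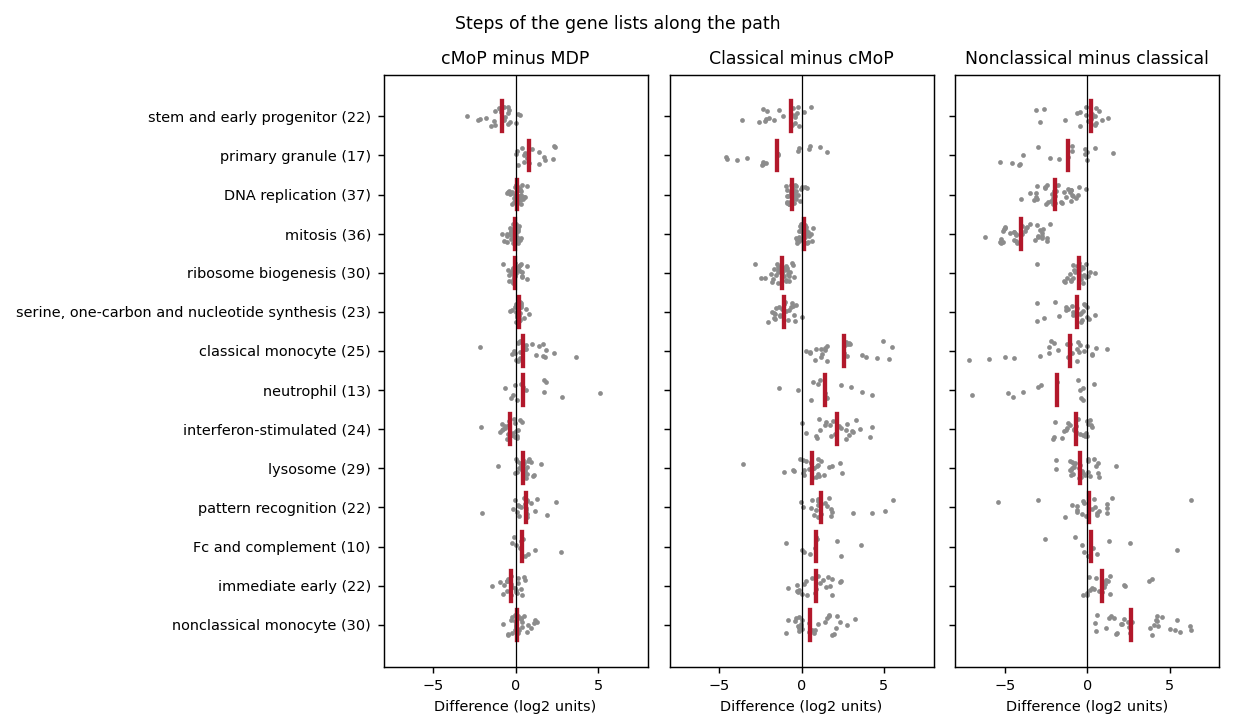
Difference (log2 units) of every gene of 14 lists at each of the 3 steps of the path, with the number of genes past 6.27 in brackets; grey points are genes and red bars medians. The mitosis median is -4.00 at the last step and -0.05 and 0.13 before it, and the primary granule median is 0.83 at the early step.

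The cMoP peaks held genes of granules. Ms4a3, a membrane protein found in myeloid progenitors, had 9.65 in MDP, 11.94 in cMoP, 7.41 in classical and 5.68 in nonclassical monocytes, so cMoP stood 2.29 units (4.90-fold) above the next array. Elane, neutrophil elastase, had 11.10, 12.55, 10.19 and 6.12, and Prss57, another serine protease of granules, had 8.18, 9.94, 6.04 and 6.00. Nkg7, a granule membrane protein, had 9.97, 11.70, 7.16 and 6.00, and Cd63, a tetraspanin of granules and lysosomes, had 8.58, 10.10, 6.54 and 5.74. Each was bright in MDP too, and under 6.27 in nonclassical monocytes.

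Of 17 primary granule genes past 6.27, 4 were cMoP peaks beside 0.285% of all genes, and Fcnb, ficolin B, was a classical monocyte peak. The list's median steps were 0.83, -1.51 and -1.15, and 7 of the 17 rose by 1 unit or more into cMoP, where 1.44% of all genes did. Some of the brightest granule genes missed the peak rule because MDP was nearly as high. Mpo, myeloperoxidase, had 13.41, 13.58, 11.16 and 7.04, and Ctsg, cathepsin G, had 12.52, 13.03, 10.69 and 5.39. Lyz2, lysozyme, kept climbing to the classical monocyte with 10.82, 12.21, 13.76 and 13.71. The list thus held several shapes after the step into cMoP.

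Other cMoP peaks lay outside granules. Hdc, the histamine-forming enzyme, had the largest margin with 6.57, 9.09, 5.84 and 5.85, 2.52 units (5.72-fold) above MDP. Mgst2, a microsomal glutathione transferase, had 8.69, 10.68, 8.69 and 5.81, Mt1, a metallothionein, had 9.13, 10.69, 8.30 and 7.32, and Alas1, the entry enzyme of haem synthesis, had 9.67, 10.71, 8.79 and 7.60. Hdc is also a gene of basophils and mast cells. Of 11 such genes 8 were under 6.27 on all path arrays, with Cpa3 between 4.51 and 5.09, Gata1 at 5.10 and Fcer1a between 3.67 and 4.13. Mcpt8, a basophil protease, had 8.95, 8.70, 6.71 and 7.50 and was not higher in cMoP than in MDP. Prss34, the other such gene past 6.27, was a riser and rose into cMoP by 0.335, the median early step of the 3. Hdc and Prss34 thus rose at that step, and Mcpt8 did not. Without Hdc, the summed linear signal of the other 10 genes was 786 in MDP, 746 in cMoP, 415 in classical and 648 in nonclassical monocytes. This sum was not higher in cMoP than in MDP, but that order rests on the bright Mcpt8 alone. The remaining genes of the sum were together slightly higher in cMoP than in MDP. The part of basophils and mast cells in the Hdc peak was not tested.

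The promoter of Hdc is shown as that of the strongest cMoP peak. It lies at chr2:126618629-126618928 on the minus strand of GRCm38.p6, with the palindromic C/EBP motif TTGNNCAA matched at position -122 in capitals.

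Hdc: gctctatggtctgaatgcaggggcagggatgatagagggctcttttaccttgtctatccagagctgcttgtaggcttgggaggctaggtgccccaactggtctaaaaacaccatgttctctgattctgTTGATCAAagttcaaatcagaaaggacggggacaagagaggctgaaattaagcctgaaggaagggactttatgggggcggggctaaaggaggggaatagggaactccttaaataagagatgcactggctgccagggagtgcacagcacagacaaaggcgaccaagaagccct

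TTGNNCAA stood in 4 of 23 promoters (17.4%) of cMoP peaks, 13 of 131 (9.92%) of classical monocyte peaks, 5.31% of promoters of genes past 6.27 and 6.4% of all promoters. With 4 promoters the share is coarse.

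The cMoP dips held genes that were bright in monocytes and lower in cMoP than in MDP. Marcks, a substrate of protein kinase C at the plasma membrane, had 8.46 in MDP, 6.12 in cMoP, 9.15 in classical and 10.47 in nonclassical monocytes. Tlr7, the receptor for single-stranded RNA, had 6.41, 4.36, 8.62 and 9.81, and Rtp4, an interferon-induced chaperone of receptors, had 7.07, 4.99, 9.24 and 9.51. Cd74, the invariant chain of class II presentation, had 6.53, 4.88, 7.53 and 9.79. Lgmn, a lysosomal protease, had 7.07, 6.00, 7.86 and 9.60. In all 5 the cMoP value lay under 6.27, and MDP was lower than both monocytes. Dusp1, a phosphatase of the immediate early class, dipped at a brighter level, with 7.18 in cMoP, 8.88 in classical and 11.16 in nonclassical monocytes and an early step of -1.42. Of 39 cMoP dips, 20 had their lowest value under 6.27.

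Class II genes as a list did not follow Cd74. H2-Aa had 6.47, 5.92, 6.30 and 6.47 and H2-Ab1 had 7.0, 6.64, 6.56 and 6.97, so both were near 6.27 throughout. Of 8 class II genes past 6.27, 1 was a cMoP dip, 1 a faller and 1 a classical monocyte peak, beside 0.358%, 6.69% and 1.28% of all genes. The median steps were -0.30, 0.19 and 0.25.

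Of the 300 microRNA genes with a Mir symbol, 88 were past 6.27 and 3 of these held a pattern, beside 12.6% of all genes. Mir142, a haematopoietic microRNA, was a cMoP dip with 7.94, 6.52, 7.55 and 8.37. Mir350 was also a cMoP dip, with 6.01, 4.32, 6.01 and 7.08, and its MDP and classical values were tied. Mir342 was a riser with 5.87, 5.87, 6.31 and 8.11. It lies within Evl in RefSeq, and Evl, an actin regulator, was itself a riser with 8.48, 8.59, 9.43 and 10.72. Mir350 lies within Cep170, which held no pattern with 8.11, 7.58, 8.71 and 9.41 but was likewise lowest in cMoP. The array does not tell the arms of a hairpin apart, so both RefSeq mature forms of each are given, with the seed (bases 2 to 8) in capitals, and none of the 6 seeds is shared.

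miR-142a-5p: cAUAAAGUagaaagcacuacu
miR-142a-3p: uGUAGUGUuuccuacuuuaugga
miR-342-5p: aGGGGUGCuaucugugauugag
miR-342-3p: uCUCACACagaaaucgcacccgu
miR-350-5p: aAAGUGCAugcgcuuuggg
miR-350-3p: uUCACAAAgcccauacacuuuc

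Classical monocyte peaks were the largest of the middle patterns, with 139 genes and 35 of them past 4-fold. Fn1, fibronectin, had 7.01 in MDP, 7.39 in cMoP, 12.69 in classical and 6.70 in nonclassical monocytes, 5.30 units (39.4-fold) above the next array. Vcan, the proteoglycan versican, had 4.55, 4.80, 9.40 and 4.97 (at least 8.73-fold), and Mmp8, a collagenase, had 7.17, 7.02, 11.28 and 4.32 (17.3-fold). Ccr1, a receptor for inflammatory chemokines, had 3.97, 4.10, 7.99 and 3.65. The other 3 path arrays lay close together for Fn1 and Vcan. Chil3, a chitinase-like secreted protein, had 5.26, 8.90, 12.80 and 7.81, and S100a9, a subunit of calprotectin, had 6.69, 8.41, 12.07 and 8.18. For these last genes cMoP already stood above MDP.

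The classical monocyte list held 12 such peaks and 3 risers among 25 genes past 6.27, beside 1.28% peaks among all genes, and was likewise written from known markers. Its median steps were 0.48, 2.55 and -1.06. The monocyte chemokine receptor Ccr2 was no peak, with 10.25, 10.37, 11.92 and 11.29. F13a1, a coagulation factor subunit, was bright until classical monocytes and then lost, with 11.38, 11.40, 12.24 and 5.04. Of 13 neutrophil genes past 6.27, 6 were classical monocyte peaks (Lcn2, Mmp8, S100a8, S100a9, Cd177 and Padi4). Without these 6, the summed linear signal of the other 14 measured genes was 1534 in MDP, 2880 in cMoP, 4669 in classical and 3020 in nonclassical monocytes. It too was highest in classical monocytes, where Anxa1 at 11.11, Csf3r at 9.93 and Ltb4r1 at 9.69 were the brightest of the 14. Csf3r, a riser, was higher still in nonclassical monocytes at 10.31. In classical monocytes the 6 peaks stood at 10.45 (Lcn2), 11.28 (Mmp8), 12.64 (S100a8), 12.07 (S100a9), 9.88 (Cd177) and 7.46 (Padi4). Other genes of the list, Ly6g (4.69 to 4.75), Ltf (4.63 to 4.94), Retnlg (4.70 to 4.96) and Stfa2 (3.03 to 3.04), were under 6.27 on all path arrays. So were 7 of its 20 measured genes in all. Camp and Ngp, further granule genes of neutrophils, reached 6.89 and 6.62 in classical monocytes, steps of 0.60 and 1.53 from cMoP. The part of neutrophils in these peaks was not tested.

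Interferon-stimulated genes formed another block of classical monocyte peaks. Of 24 past 6.27, 7 were such peaks beside 1.28% of all genes. From cMoP to classical monocyte 20 rose by 1 unit or more, where 7.01% of all genes did. The median steps were -0.35, 2.16 and -0.69. Ifit3 had 5.10, 5.09, 9.23 and 7.22, and Mx1, an antiviral GTPase, had 5.98, 6.00, 9.03 and 7.63. Irf7, the factor that amplifies the interferon response, had 6.42, 5.65, 9.21 and 8.39 and missed the peak rule because nonclassical monocytes stayed within 1 unit. Zbp1, a nucleic acid sensor, was a riser with 6.05, 6.33, 9.60 and 9.74. In 19 of the 22 that spanned 1 unit the step into classical monocytes was the largest, as in 41.0% of all such genes.

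The promoter of Ifit1, a peak with 5.17, 4.65, 7.35 and 5.28, is shown for the motif of the interferon-stimulated response element, searched as a pair of GAAA runs 2 bases apart. It lies at chr19:34640639-34640938 on the plus strand of GRCm38.p6, and the capitals mark 2 matches on the other strand at positions -104 and -85.

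Ifit1: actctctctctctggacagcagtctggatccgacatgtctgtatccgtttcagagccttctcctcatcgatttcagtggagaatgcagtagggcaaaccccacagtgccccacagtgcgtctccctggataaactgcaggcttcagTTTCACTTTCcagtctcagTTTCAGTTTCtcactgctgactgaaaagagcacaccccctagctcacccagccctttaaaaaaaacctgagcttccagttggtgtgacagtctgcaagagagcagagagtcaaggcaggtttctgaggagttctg

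The motif stood in 11 of 21 promoters (52.4%) of the interferon-stimulated list, 9 of 131 (6.87%) of all classical monocyte peaks, 3.14% of promoters of genes past 6.27 and 3.44% of all promoters.

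Only 10 genes dipped at the classical monocyte. Bcl2, the survival factor, had 11.19 in MDP, 9.84 in cMoP, 7.23 in classical and 8.75 in nonclassical monocytes. Cd81, a tetraspanin, had 10.09, 10.07, 7.03 and 9.16, the widest dip at 2.14 units (4.40-fold). Egln3, an oxygen-sensing prolyl hydroxylase, had 9.04, 7.94, 5.19 and 7.29, and Sox4, a progenitor factor, had 8.94, 7.16, 5.16 and 6.40. Tcf7l2, a factor of WNT signalling, had 7.46, 6.80, 5.69 and 10.07 and was the one named here that ended well above its start. Bcl2, Cd81, Egln3 and Sox4 regained only part of their MDP level. Spred2, Cyfip2, Pdgfrb, Il31ra and Cdk6 complete the set.

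Of 55 transcription factors past 6.27, 11 were risers beside 3.92% of all genes, 5 were fallers beside 6.69%, 1 was a classical monocyte peak beside 1.28%, 1 was a classical monocyte dip, and 37 held no pattern. Spi1, which encodes the myeloid factor PU.1, had 10.16, 10.68, 11.10 and 11.24, a riser of small size. Cebpb, a factor of nonclassical monocyte survival, had 6.99, 8.09, 8.53 and 8.98, with its largest step at cMoP. Klf2, a factor of quiescence, ended at 8.71 from 7.40. Irf8, the factor that directs progenitors to the monocyte and dendritic fate, was a faller with 10.54, 10.45, 10.32 and 9.0, most of it at the last step. Id2, an inhibitor of E proteins, peaked with 6.29, 5.61, 9.70 and 8.14. Bcl6, a repressor, had 6.75, 6.55, 9.16 and 11.24 and missed the riser rule through a step of -0.20 into cMoP.

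Lysosome genes had no common pattern. The median steps of the 29 genes past 6.27 were 0.47, 0.66 and -0.43. They held 5 risers beside 3.92% of all genes. There was 1 each of cMoP peak, cMoP dip and classical monocyte peak, beside 0.285%, 0.358% and 1.28%. Cd68 had 9.13, 9.42, 11.75 and 12.40, and Ctsb, cathepsin B, had 9.08, 10.15, 11.19 and 11.35. Psap, the precursor of the saposins, had 10.36, 11.02, 12.67 and 11.88 and was higher in classical monocytes. The motif CACGTG, bound by TFEB and by MYC, stood in 10 of 27 promoters (37.0%) of this list, 7 of 26 (26.9%) of the ribosome biogenesis list, 10.2% of promoters of genes past 6.27 and 7.15% of all. These lists moved in opposite directions at the middle step.

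Immediate early genes had median steps of -0.27, 0.86 and 0.91. Of 22 past 6.27, 5 were risers beside 3.92% of all genes. At the middle step 9 rose by at least 1 unit, where 7.01% of all genes did. At the last step 9 did, beside 3.55% of all genes. Atf3 had 5.27, 5.85, 7.15 and 8.31 and was graded. Zfp36, which destabilizes cytokine messages, dipped to 8.49 in cMoP from 9.46 and then reached 10.83 and 11.78.

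CDP was not used to choose any pattern, though MDP and cMoP were. Among the 427 risers CDP lay above MDP in 345 (80.8%), where it did in 40.0% of all genes past 6.27. Among the 729 fallers CDP lay below MDP in 623 (85.5%), against 50.9% of all. The median difference of CDP from MDP was 0.38 in risers and -0.39 in fallers, and that of cMoP was 0.33 and -0.26. By these medians CDP stood about as far along the riser and faller patterns as cMoP did. Klf4 was at 8.79 in CDP and 8.46 in cMoP, and Cd34 at 10.20 and 10.82. The MDP value enters both differences and also the rule, so these shares are no independent check.

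The cMoP patterns were different. In all 31 cMoP peaks CDP lay at least 1 unit below cMoP, as 3.13% of all genes did, and it lay below MDP in 24. The median difference of CDP from MDP was -0.55, against 1.36 for cMoP. Ms4a3 was at 7.05, Nkg7 at 7.77 and Elane at 8.99 in CDP, each below MDP. In 32 of 39 cMoP dips CDP lay at least 1 unit above cMoP, as 2.07% of all genes did. Cd74 was at 7.97 and Marcks at 9.06 in CDP, both above MDP, while Rtp4 was at 5.38, near its cMoP value of 4.99. The cMoP value is part of the rule here as well. Of the 139 classical monocyte peaks, 116 (83.5%) were higher in CDP than in MDP, against 40.0% of all genes, and 29 (20.9%) by at least 1 unit, against 1.07%, among them Fn1 with 9.45 and Lilra6 with 8.54.

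**Figure D5:**
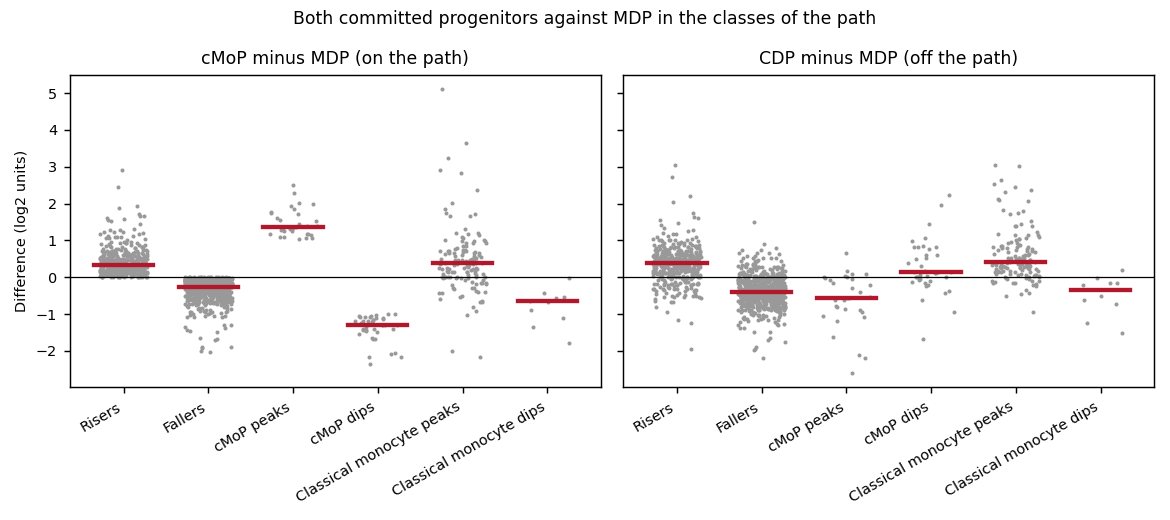
Difference from MDP (log2 units) of cMoP, left, and CDP, right, for every gene of each pattern; grey points are genes and red bars medians. The risers' medians are 0.33 and 0.38, while the cMoP peaks' medians are 1.36 and -0.55.

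Members near the limits of the rules were close to genes left out. The smallest rise inside was that of Traf3ip3 at 1.0015 and the largest outside that of 4732471J01Rik at 0.9968. Among cMoP peaks the limit fell between Alas1 at 1.0438 and Get1 at 0.9998, and among classical monocyte peaks between Plxdc1 at 1.0082 and Depdc7 at 0.9849. The lowest of the 4 values was under 6.27 in 128 risers, 241 fallers, 19 cMoP peaks and 71 classical monocyte peaks, where the size of a difference rests on dim signal. Exactly tied neighbours stood in 19 risers (4.45%) and 54 fallers (7.41%), against 15.7% of all genes past 6.27. Of 63 fallers with several probe sets, another probe set met the rule in 29, and of 16 such risers in 7.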

How the data were processed

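The authors deposited 1 log2 value per probe set and array for 5 arrays. Not given in the sources used here are the background correction, normalization, software and genome build. Base 2 was read from the range of the values, 1.59 to 14.24, and each fold depends on it. Extraction used the RNAqueous-Micro kit and labelling Nugen's Encore Biotin kit, per the labels' protocols. Of 35556 probe sets, 21789 have 1 symbol in the platform's annotation, 1621 have several and 12146 have none. The single-symbol sets gave 19938 genes, and for the 999 genes with several the brightest on average over all 5 arrays stands for the gene. Equal neighbouring values counted as no step in either direction. A fold with the lower value under 6.27 was computed with 6.27 in its place and is given as "at least".

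Groups came from the sample titles. No test was run, since each population has 1 array, and their number limits the precision. Genes were named by rule: the 15 risers and 15 fallers with the largest whole difference, the 5 largest per step group, the 6 graded genes with the largest smallest step, the 8 with the largest margin in each peak or dip, and list members. Genes and families beyond the rule, such as list members outside every pattern, were chosen after their values were seen. The 31 gene lists (635 genes, 587 measured) and the patterns were chosen with earlier results of these data known. Promoters are 300-base windows from RefSeq (GRCm38.p6), 32851 for 27025 genes, matched by symbol for 8785 of the 10892 genes. They were searched on both strands for 12 motifs. These were the 8 given with results and, with no result reported, GAGGAAGT (PU.1), TGACTCA (AP-1), CCACACCC (KLF) and AAAGGTCA (nuclear receptors). Matches of different motifs may overlap. Each promoter shown belonged to the gene with the largest difference in its set among those with 1 listed start and a match. Genes on 1 chromosome were left out, and the match was a condition of being shown. Python 3.11.15, pandas 2.3.3, NumPy 2.4.6, SciPy 1.17.1 and matplotlib 3.10.9 were used, and the classification was tested on simulated data.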

Additional observations from a re-analysis of the deposited data

How the results depend on the processing

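The threshold set the counts. The smallest step of graded genes was changed with it, to 0.25 for the lower threshold and 1 for the higher. At 0.5 units there were 659 risers, 1162 fallers, 170 graded risers, 217 graded fallers, 284 cMoP peaks, 257 cMoP dips, 439 classical monocyte peaks and 88 dips. At 2 units there were 202, 242, 3, 0, 2, 4, 35 and 2 in that order. Quantile normalization gave 76 graded risers, against 45. With CDP in place of cMoP there were 539 risers and 1035 fallers, more than the 427 and 729 of the path through cMoP. Of these, 337 risers and 577 fallers were shared with that path. There were also 76 graded risers, 97 graded fallers, 14 dips at that position (1 of them shared with the 39) and 21 classical monocyte dips. The path through CDP also had 23 peaks at the position, none of them among the 31. All other counts under these settings, and all counts with centring on array medians, no floor, a floor at the upper quartile (7.93), the median of probe sets or genes with a single probe set, stayed within 1.5 times. Risers were 36.9% of risers and fallers together, but 44.3% after quantile normalization and 45.5% at 2 units. Of 80 named genes (86 pairs of gene and pattern) none changed direction under quantile normalization or centring. These rescalings moved an array by a median of at most 0.075 and 0.052 units. Such shifts are small beside the differences that chose the genes, so this is a weak check. Fcgr4 left its pattern under quantile normalization, and Bub1, Shcbp1 and Ncapg under centring. No paired analysis was possible because each population has 1 array, and for the same reason no replicate could be left out. The dim values of many genes limit the sizes given.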
